A study of Mus musculus with 18 samples.

Results

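The Slc22 genes encode carriers that move organic anions, cations and zwitterions across cell membranes. The 9 members described here were chosen by gene name: Slc22a2, Slc22a4, Slc22a5, Slc22a6, Slc22a7, Slc22a8, Slc22a12, Slc22a13 and Slc22a28. They are 9 of the 24062 genes in an RPKM table of mouse kidney cortex, and all 9 reached the expression minimum for testing, which 13624 genes reached. RPKM is the read density per kilobase of transcript, scaled to library depth, so it allows levels of different genes to be set side by side.

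In the proximal tubule, basolateral carriers such as OAT1 (Slc22a6) and OAT3 (Slc22a8) take organic anions from the blood in exchange for intracellular dicarboxylates, and OCT2 (Slc22a2) takes up organic cations. On the apical side URAT1 (Slc22a12) recovers urate from the tubular fluid, and OCTN2 (Slc22a5) recovers carnitine with sodium. Aristolochic acid I, a nitrophenanthrene plant toxin that injures the proximal tubule, is a substrate of OAT1 and OAT3.

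Klf15PTKO mice (PTKO) and Klf15fl/fl mice (fl/fl), both of the C57Bl/6 strain, received DMSO, aristolochic acid I for 2 weeks (AA 2wk), or that course followed by a remodeling period of 2 weeks (AA 4wk). The name of the fl/fl mice gives floxed Klf15 alleles, and PTKO stands for loss of Klf15, a Krüppel-like transcription factor, in the proximal tubule. Each of the 6 groups holds 3 libraries, 18 in all. The labels name no Cre line, age or dose and no group with Cre and intact Klf15, so effects of genotype and of Cre cannot be told apart. Nothing states that the 3 libraries of a group come from separate mice, so p-values measure the spread between these samples, which may be technical. The DMSO libraries carry no week, and 1 DMSO group per genotype serves both toxin courses, which are therefore not independent.

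Depth, recovered from the steps between RPKM values, was 11.0 to 21.9 M reads per library. Klf15 RNA stood at 28.5, 31.9 and 32.6 RPKM in PTKO DMSO cortex and at 53, 61.3 and 65.5 RPKM in fl/fl DMSO cortex, with no overlap, although the difference did not pass the limma test over all genes (log2 fold change −0.93 ± 0.26 SE, adjusted p = 0.595). The fit took each gene's spread from all 6 groups together, so comparisons within DMSO also carry the scatter of the AA 2wk libraries. The SD of Klf15 was 2.2 RPKM in PTKO and 6.33 RPKM in fl/fl with DMSO. It was 6.61 RPKM in PTKO and 12.1 RPKM in fl/fl at AA 2wk, and 0.361 RPKM in PTKO and 3.61 RPKM in fl/fl at AA 4wk. The 15 proximal tubule markers were all detected in every group, at a summed level of 13751 to 14646 RPKM in PTKO DMSO and 12839.9 to 15335 RPKM in fl/fl DMSO libraries. Libraries that stood apart touched the members. The third AA 2wk library of each genotype held more proximal tubule RNA (5714 RPKM summed over those markers in PTKO, 5691 in fl/fl) than the first and second (2732 and 2624 in PTKO, 3402 and 2770.3 in fl/fl). Within AA 2wk the correlation between replicate libraries across genes was 0.947 to 0.987 in PTKO and 0.944 to 0.98 in fl/fl, against 0.979 to 0.995 in the other groups. The second PTKO AA 4wk library had the lowest such sum of all, 1465 RPKM. The third PTKO DMSO library had 1011 RPKM of tubule injury markers, against 508 and 542 in the first and second. The members' toxin effects are given below with and without the AA 2wk libraries numbered 3 and the second PTKO AA 4wk library.

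The genes are spread over 4 chromosomes of GRCm38, each with 10 to 12 exons in the fullest annotated transcript. Slc22a8 (chr19:8591254-8611835) and Slc22a6 (chr19:8618039-8628299) lie next to each other on the plus strand of chromosome 19, with 6.2 kb between them. Slc22a28 (chr19:8062209-8131982) and Slc22a12 (chr19:6535845-6543032) lie on the minus strand of the same chromosome. Slc22a4 (chr11:53983123-54028090) and Slc22a5 (chr11:53864542-53891660) are near neighbours on chromosome 11, with Slc22a21 between them, both on the minus strand. Slc22a2 (chr17:12584132-12628488, plus strand) and Slc22a7 (chr17:46432183-46438457, minus strand) share chromosome 17 at a distance, and Slc22a13 (chr9:119192974-119209098, minus strand) is alone on chromosome 9.

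Upstream sequence (RefSeq, GRCm38.p6, from 250 bases before each start) was available for 8 of the 9 members and is shown in part for Slc22a6, Slc22a8, Slc22a12 and Slc22a5. The run GTTAAT was searched on both strands and occurs upstream of Slc22a6, from position −56, and of Slc22a8, from position −81, counted back from the start. The RefSeq start of Slc22a8 lies inside the gene span given above, and all 250 of its upstream bases, like 57 of 250 for Slc22a2 and 0 for the other 6, lie in a GENCODE exon of the gene itself. The run was thus found in 2 of 8 members, against 6.43% of 32851 mouse promoters of that length. The following are the last 130 bases before the start of Slc22a6 (chr19:8617866-8617995, plus strand), Slc22a12 (chr19:6543071-6543200, minus strand) and Slc22a5 (chr11:53891704-53891833, minus strand), and 30 bases around the Slc22a8 run (chr19:8593089-8593118, plus strand), with GTTAAT and the GC box GGGCGG, on either strand, in capitals.
Slc22a6: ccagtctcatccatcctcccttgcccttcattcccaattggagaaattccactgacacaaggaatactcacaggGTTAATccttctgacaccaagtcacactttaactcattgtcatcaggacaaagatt
Slc22a8: cccctgccggatGTTAATcttccaaagaaa
Slc22a12: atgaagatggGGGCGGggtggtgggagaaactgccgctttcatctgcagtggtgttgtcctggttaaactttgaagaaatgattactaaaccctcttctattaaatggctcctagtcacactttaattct
Slc22a5: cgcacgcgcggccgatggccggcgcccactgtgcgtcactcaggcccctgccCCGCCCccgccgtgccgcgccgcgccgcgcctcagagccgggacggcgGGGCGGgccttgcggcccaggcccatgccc

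The Slc22a6 and Slc22a12 stretches share the 13-base run agtcacactttaa, which begins at −37 and at −17. These were the only 2 of the 32851 promoters that held it on either strand. The run was noticed on reading these sequences and counted afterwards, so the count is no test of it. Over the 28 pairs of members with upstream sequence, the longest shared run of any other pair was 10 bases. GGGCGG was found upstream of 3 of 8 members, namely Slc22a4, Slc22a5 and Slc22a12, against 32.7% of all promoters, and CACCC, a core of Krüppel-like factor sites, upstream of 6 of 8, against 52%. TATAAA was in none of the 8 (12.4% of all promoters), nor were CAAAGTCCA and CAAAGGTCA, which are forms of HNF4 sites (0.384% and 0.426%). These are matches of letters and say nothing of binding.

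All 9 members were lower after aristolochic acid. Each was called lower (limma on log2(RPKM + 1), Benjamini-Hochberg adjusted over 13624 genes, threshold 0.05) in all 4 comparisons with DMSO, that is, after either course in either genotype. Called lower were 14.3% of all genes in PTKO and 12.2% in fl/fl at AA 2wk, and 17.3% in PTKO and 14.3% in fl/fl at AA 4wk. These shares depend on the scaling. Under median-of-ratios scaling and quantile normalization, described at the end, a larger part of all calls was lower, and all 9 members stayed called lower. The members' median log2 fold change was −2.55 in PTKO and −2.25 in fl/fl at AA 2wk, and −3.75 in PTKO and −2.91 in fl/fl at AA 4wk. The median of all tested genes was 0.29, 0.33, 0.40 and 0.35 in the same order. Every toxin library was below every DMSO library of its genotype for all 9 members, a pattern that 16% of all genes showed in PTKO and 12.3% in fl/fl at AA 2wk, and 19.9% in PTKO and 16.6% in fl/fl at AA 4wk. In bulk cortex, fewer proximal tubule cells and less RNA per cell cannot be told apart.

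**Figure D1:**
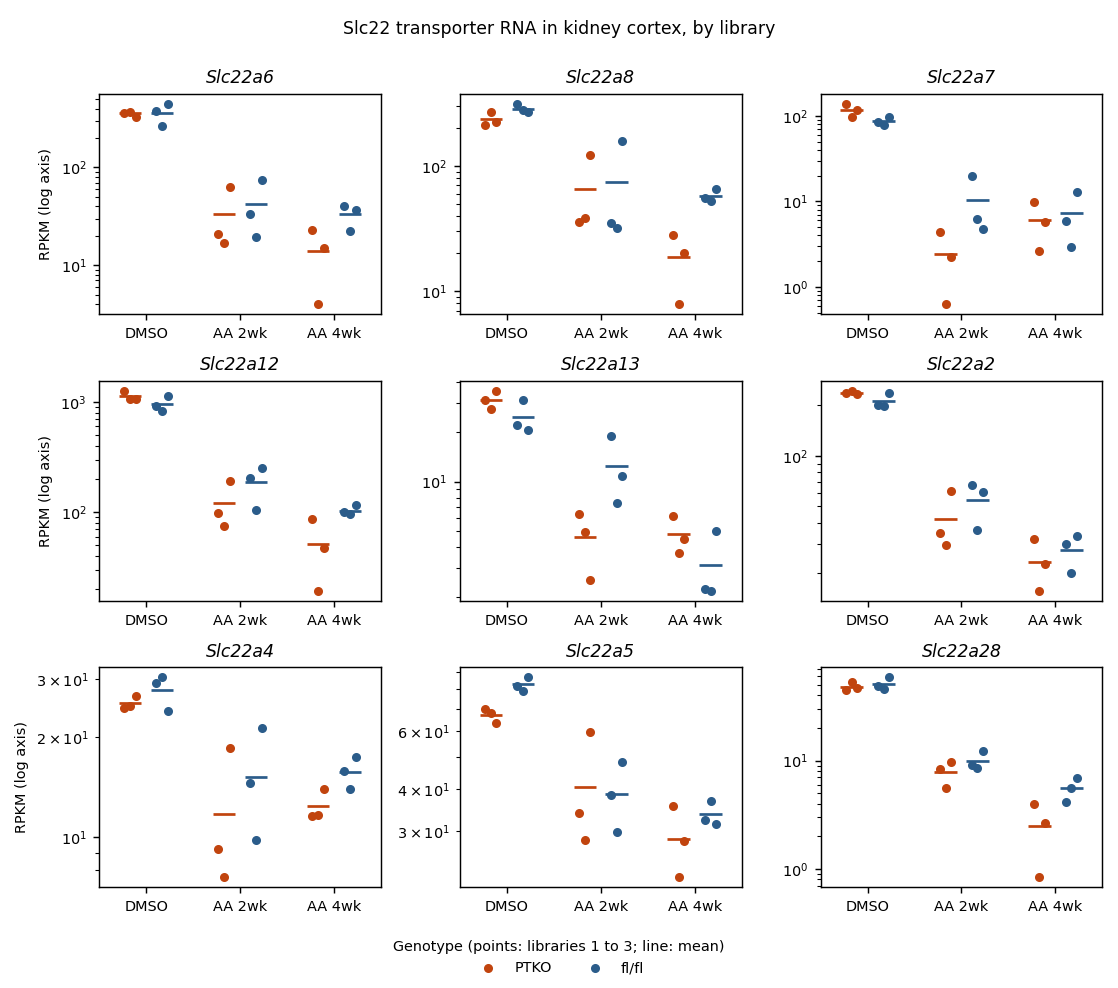
RPKM of each member (y axis, log scale) in DMSO, AA 2wk and AA 4wk libraries of PTKO (left in each pair) and fl/fl cortex. Points are the 3 libraries of a group and lines their mean. In every panel all toxin libraries lie below the DMSO libraries of their genotype.

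Slc22a6, the basolateral anion exchanger OAT1, stood at 365, 373 and 332 RPKM in PTKO and 381, 265 and 443 RPKM in fl/fl libraries given DMSO. At AA 2wk it was at 21, 16.9 and 62.4 RPKM in PTKO and 33.6, 19.4 and 74.1 RPKM in fl/fl. At AA 4wk it was at 22.7, 3.96 and 15 RPKM in PTKO and 40.5, 22.6 and 37 RPKM in fl/fl. The third AA 2wk library of each genotype was the highest of its 3, and the second PTKO AA 4wk library was far below all others. The log2 fold change over DMSO at AA 2wk was −3.61 ± 0.57 (SE) in PTKO (adjusted p = 0.000119) and −3.24 ± 0.57 in fl/fl (adjusted p = 0.00025). Its level fell 29-fold in PTKO (log2 −4.86 ± 0.57, adjusted p = 4.55e-06) and 10.7-fold in fl/fl (−3.41 ± 0.57, adjusted p = 0.000122) at AA 4wk, on the scale of RPKM + 1. Without the second PTKO AA 4wk library the AA 4wk change in PTKO was −4.20 (adjusted p = 2.49e-05). Without both libraries numbered 3 the AA 2wk changes were −4.17 in PTKO and −3.74 in fl/fl.

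Slc22a8, the second basolateral uptake route for aristolochic acid (OAT3), had 214, 271 and 223 RPKM in PTKO and 310.5, 282 and 268 RPKM in fl/fl DMSO libraries. At AA 2wk the values were 35.5, 38.1 and 123 RPKM in PTKO and 34.9, 32 and 158 RPKM in fl/fl. At AA 4wk they were 28, 7.83 and 20 RPKM in PTKO and 55.5, 52.5 and 65 RPKM in fl/fl. The first and second AA 2wk libraries of both genotypes were nearly level, the third was over 3 times as high in each, and at AA 4wk the genotypes did not overlap. Its AA 2wk change was −2.07 ± 0.56 in PTKO (adjusted p = 0.00561) and −2.33 ± 0.56 in fl/fl (adjusted p = 0.00244). At AA 4wk it was −3.75 ± 0.56 in PTKO (adjusted p = 3.54e-05) and −2.30 ± 0.56 in fl/fl (adjusted p = 0.00231). Without both libraries numbered 3 the AA 2wk change became −2.64 in PTKO and −3.06 in fl/fl, and without the second PTKO AA 4wk library the AA 4wk change in PTKO became −3.25.

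The balance between the 2 aristolochic acid carriers leaned to Slc22a8 in the toxin libraries. The ratio of Slc22a8 to Slc22a6 RPKM was 0.586, 0.727 and 0.672 in PTKO DMSO and 0.814, 1.06 and 0.605 in fl/fl DMSO libraries. It was 1.69, 2.26 and 1.98 in PTKO and 1.04, 1.65 and 2.13 in fl/fl at AA 2wk, and 1.24, 1.98 and 1.34 in PTKO and 1.37, 2.32 and 1.75 in fl/fl at AA 4wk. The toxin libraries of each genotype lay above its DMSO libraries, except that the first fl/fl AA 2wk library (1.04) lay just below the second fl/fl DMSO library (1.06). A test of 3 libraries against 3 cannot give an exact permutation p below 0.1, so the ratios are given as values.

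Slc22a7 (OAT2), an anion carrier at a lower level than OAT1 and OAT3, was at 137, 97.7 and 119 RPKM in PTKO and 85.3, 77.5 and 98.5 RPKM in fl/fl with DMSO. At AA 2wk it had 4.45, 0.624 and 2.25 RPKM in PTKO and 19.9, 6.28 and 4.72 RPKM in fl/fl. At AA 4wk it had 9.96, 2.65 and 5.76 RPKM in PTKO and 5.87, 2.96 and 13 RPKM in fl/fl. The genotypes did not overlap at AA 2wk and were interleaved at AA 4wk, and the lowest value rested on 18 reads. The AA 2wk change in PTKO, −5.26 ± 0.55 (38.4-fold, adjusted p = 4.09e-06), was the largest fold change of any member in any comparison, and in fl/fl it was −3.20 ± 0.55 (adjusted p = 0.000207). At AA 4wk the changes were −4.18 ± 0.55 in PTKO (adjusted p = 1.12e-05) and −3.60 ± 0.55 in fl/fl (adjusted p = 5.67e-05). Unlike Slc22a6 and Slc22a8, Slc22a7 was not highest in the third AA 2wk library of either genotype, and in fl/fl the third was the lowest of 3.

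Slc22a12, the apical urate carrier URAT1, had the highest mean of the members in every group, although its libraries overlapped those of the next member in both AA 2wk groups and in PTKO at AA 4wk. Its level was 1259, 1054 and 1055 RPKM in PTKO and 919.9, 826 and 1120.4 RPKM in fl/fl DMSO libraries. AA 2wk libraries had 98.1, 74.6 and 192 RPKM in PTKO and 204, 105 and 253 RPKM in fl/fl, and AA 4wk libraries had 86.5, 19.3 and 47.1 RPKM in PTKO and 99.4, 95.7 and 115 RPKM in fl/fl. The 3 fl/fl AA 4wk libraries lay close together and above all 3 PTKO AA 4wk libraries. The log2 fold changes were −3.31 ± 0.44 in PTKO (adjusted p = 3.18e-05) and −2.42 ± 0.44 in fl/fl (adjusted p = 0.000337) at AA 2wk. At AA 4wk they were −4.67 ± 0.44 in PTKO (adjusted p = 8e-07) and −3.19 ± 0.44 in fl/fl (adjusted p = 2.53e-05). With the second PTKO AA 4wk library left out, the AA 4wk change in PTKO was −4.11.

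Slc22a13 (OAT10), known in human cells as an exchanger of urate and nicotinate, was near the bottom of the order in DMSO, at 31.2, 27.4 and 35.5 RPKM in PTKO and 22.1, 31.3 and 20.5 RPKM in fl/fl. At AA 2wk it had 6.35, 4.97 and 2.53 RPKM in PTKO and 19, 7.37 and 10.8 RPKM in fl/fl. At AA 4wk it had 6.19, 3.71 and 4.5 RPKM in PTKO and 2.22, 2.17 and 4.99 RPKM in fl/fl. The first fl/fl AA 2wk library was thus close to the lowest fl/fl DMSO library, while all 3 PTKO AA 2wk libraries were well below. At AA 2wk the change was −2.58 ± 0.33 in PTKO (adjusted p = 2.43e-05) and −1.01 ± 0.33 in fl/fl (adjusted p = 0.0168). The fl/fl call was lost without the second fl/fl AA 2wk library (−0.71, adjusted p = 0.0916) or the second fl/fl DMSO library (−0.83, adjusted p = 0.0658). At AA 4wk the changes were −2.49 ± 0.33 in PTKO (adjusted p = 1.34e-05) and −2.68 ± 0.33 in fl/fl (adjusted p = 1.07e-05).

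Slc22a2 (OCT2), the basolateral entry route of organic cations, had 238, 244 and 233 RPKM in PTKO and 200.5, 198 and 236 RPKM in fl/fl DMSO libraries. It had 34.7, 29.3 and 61.6 RPKM in PTKO and 67.3, 36.2 and 60.6 RPKM in fl/fl at AA 2wk. It had 32, 15.7 and 22.7 RPKM in PTKO and 29.7, 20.2 and 33.2 RPKM in fl/fl at AA 4wk. The genotypes overlapped at both times. The AA 2wk change was −2.55 ± 0.29 in PTKO and −1.97 ± 0.29 in fl/fl, and the AA 4wk change was −3.34 ± 0.29 in PTKO and −2.91 ± 0.29 in fl/fl, with adjusted p of 6.42e-05 or less. Slc47a1 (MATE1), the apical exporter that carries cations on into the urine, was lower with it, at log2 changes of −1.48 in PTKO and −1.61 in fl/fl at AA 2wk and −2.43 in PTKO and −2.09 in fl/fl at AA 4wk (adjusted p of 2.79e-05 or less).

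The carnitine and zwitterion carriers Slc22a5 (OCTN2) and Slc22a4 (OCTN1, a carrier of ergothioneine) had the smallest changes of the 9, except that Slc22a13 came between them in fl/fl at AA 2wk. Slc22a5 was at 70, 67.8 and 63.4 RPKM in PTKO and 82.1, 79.4 and 87 RPKM in fl/fl with DMSO, at 34, 28.2 and 59.5 RPKM in PTKO and 38.4, 29.7 and 48.2 RPKM in fl/fl at AA 2wk, and at 35.7, 21.7 and 27.9 RPKM in PTKO and 32.3, 37 and 31.5 RPKM in fl/fl at AA 4wk. The third of its PTKO AA 2wk libraries came close to the PTKO DMSO libraries. The changes were −0.78 ± 0.23 in PTKO (adjusted p = 0.00899) and −1.10 ± 0.23 in fl/fl (adjusted p = 0.000876) at AA 2wk, and −1.24 ± 0.23 in PTKO and −1.28 ± 0.23 in fl/fl at AA 4wk (adjusted p = 0.000224 and 0.000215). Without both libraries numbered 3 the AA 2wk changes were −1.09 in PTKO and −1.27 in fl/fl. The PTKO AA 2wk call was lost without the second library of that group (−0.56, adjusted p = 0.0559).

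Slc22a4 had 24.5, 24.9 and 26.7 RPKM in PTKO and 29.1, 30.3 and 24 RPKM in fl/fl DMSO libraries. It had 9.22, 7.58 and 18.6 RPKM in PTKO and 14.6, 9.85 and 21.3 RPKM in fl/fl at AA 2wk, and 11.6, 11.7 and 14 RPKM in PTKO and 15.8, 14 and 17.4 RPKM in fl/fl at AA 4wk. The AA 4wk values were tighter than the AA 2wk values, in which the third library of each genotype was again highest. The changes were −1.14 ± 0.26 in PTKO and −0.88 ± 0.26 in fl/fl at AA 2wk (adjusted p = 0.00207 and 0.00953), and −0.98 ± 0.26 in PTKO and −0.78 ± 0.26 in fl/fl at AA 4wk (adjusted p = 0.00387 and 0.0167). In fl/fl the call was lost without the second AA 2wk library (−0.62, adjusted p = 0.0574) and, at AA 4wk, without the second AA 4wk library (−0.71, adjusted p = 0.0576). Without both libraries numbered 3 the AA 2wk changes were −1.49 in PTKO and −1.14 in fl/fl.

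Slc22a28, a member of the chromosome 19 cluster, was at 44.4, 52.7 and 47.2 RPKM in PTKO and 48.5, 46.2 and 58.7 RPKM in fl/fl with DMSO. It had 8.31, 5.56 and 9.77 RPKM in PTKO and 9.16, 8.56 and 12.3 RPKM in fl/fl at AA 2wk, and 3.95, 0.834 and 2.64 RPKM in PTKO and 4.14, 5.61 and 6.92 RPKM in fl/fl at AA 4wk. In each genotype the 3 stages did not overlap, DMSO being highest and AA 4wk lowest, and the lowest value rested on 22 reads. All AA 4wk libraries lay below all AA 2wk libraries for 8.52% of all genes in PTKO and 10.4% in fl/fl. The share of genes with all 3 stages in this order was not counted. The changes were −2.49 ± 0.29 in PTKO and −2.25 ± 0.29 in fl/fl at AA 2wk, and −3.93 ± 0.29 in PTKO and −3.01 ± 0.29 in fl/fl at AA 4wk (adjusted p of 2.1e-05 or less). Of its 31-base runs of transcript sequence, 67% also occur in Slc22a30, so its reads could have been divided between the pair. Slc22a30 itself was called lower at AA 2wk, with log2 changes of −3.32 in PTKO and −2.80 in fl/fl.

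For the members with no such value above, leaving out both AA 2wk libraries numbered 3 gave AA 2wk changes of −5.31 in PTKO and −2.83 in fl/fl for Slc22a7, and of −3.69 in PTKO and −2.68 in fl/fl for Slc22a12. They were −2.28 in PTKO and −0.96 in fl/fl for Slc22a13, −2.86 in PTKO and −2.07 in fl/fl for Slc22a2, and −2.65 in PTKO and −2.40 in fl/fl for Slc22a28. Leaving out the second PTKO AA 4wk library gave AA 4wk changes in PTKO of −3.77 for Slc22a7, −2.35 for Slc22a13, −3.10 for Slc22a2, −0.94 for Slc22a4, −1.06 for Slc22a5 and −3.53 for Slc22a28. All of these were called lower.

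Sharing of sequence touched some other members. For Slc22a13, 41.5% of the runs are shared with the pseudogene Slc22a13b-ps, which did not exceed 0.188 RPKM in any library, and for Slc22a5, 35.8% are shared with Slc22a21, at 0.44 to 1.82 RPKM. Slc22a6 and Slc22a7 share none, and the rest share 0.612% to 6.94%. Slc22a12 overlaps Nrxn2 on the other strand (group means of 1.08 to 1.94 RPKM), and Slc22a13 overlaps Slc22a14 on the same strand (group means of 0.0839 to 0.381 RPKM).

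**Figure D2:**
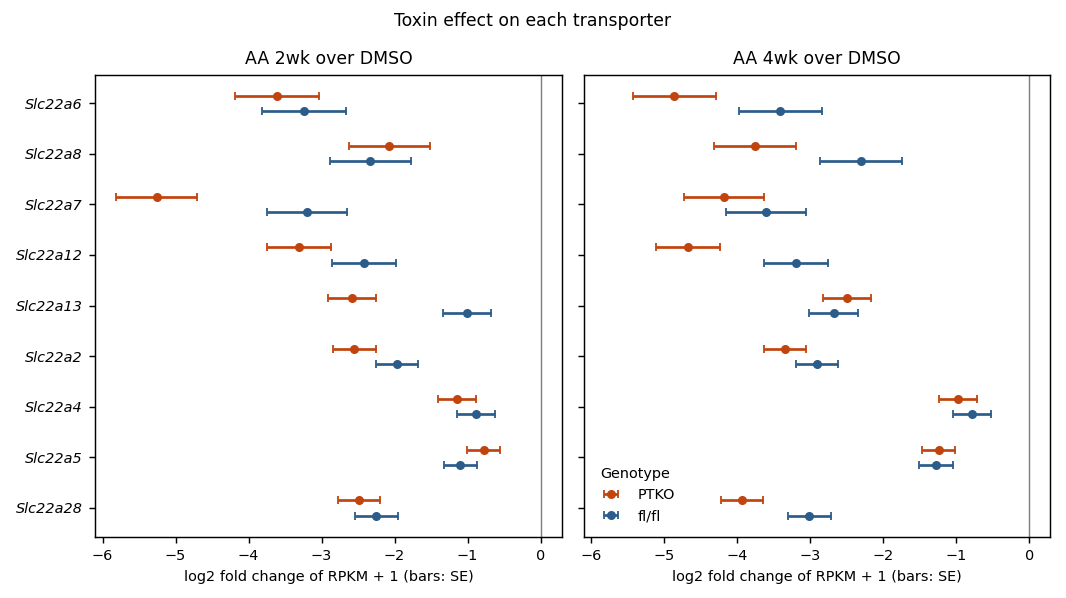
Log2 fold change of RPKM + 1 over DMSO (x axis, bars are SE from the limma fit) for each member (y axis) at AA 2wk and AA 4wk, with PTKO above fl/fl. All points lie left of 0, from −0.78 (Slc22a5 in PTKO at AA 2wk and Slc22a4 in fl/fl at AA 4wk) to −5.26 for Slc22a7.

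The order of the members by level changed with the toxin. In DMSO Slc22a12 made up 50% of the members' summed RPKM in PTKO and 45.7% in fl/fl, followed by Slc22a6 at 15.9% in PTKO and 17.4% in fl/fl. Slc22a8 and Slc22a2 came next, then Slc22a7, Slc22a5 and Slc22a28, with Slc22a4 and Slc22a13 last. Neighbours whose libraries overlapped were Slc22a2 and Slc22a8 in PTKO DMSO, and Slc22a6 and Slc22a8, Slc22a7 and Slc22a5, and Slc22a4 and Slc22a13 in fl/fl DMSO. At AA 4wk Slc22a12 still led, with 31.6% in PTKO and 36% in fl/fl. Slc22a6 then held rank 5 in PTKO (13.9 RPKM) and rank 4 in fl/fl (33.4 RPKM), while Slc22a5, at rank 6 in DMSO, held rank 2 in PTKO (28.4 RPKM) and rank 3 in fl/fl (33.6 RPKM). Among the PTKO AA 4wk means, each of the 8 neighbouring pairs but Slc22a4 and Slc22a7 overlapped. In fl/fl at AA 4wk the overlapping neighbours were Slc22a5 and Slc22a6, Slc22a6 and Slc22a2, Slc22a7 and Slc22a28, and Slc22a28 and Slc22a13.

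The summed level of all 9 members was 2383, 2213 and 2134 RPKM in PTKO and 2079, 1835 and 2356 RPKM in fl/fl DMSO libraries. At AA 2wk it was 252, 206 and 531 RPKM in PTKO and 441, 255 and 643 RPKM in fl/fl. At AA 4wk it was 237, 87.4 and 159.6 RPKM in PTKO and 285, 253 and 324 RPKM in fl/fl. The AA 4wk sums of the genotypes did not overlap, and those at AA 2wk did. Without Slc22a12, which weighs most, the AA 4wk sums were 150.0, 68.1 and 112 RPKM in PTKO and 186, 157 and 209 RPKM in fl/fl. With each member weighted alike, the genotypes did overlap at AA 4wk. The mean log2 difference from fl/fl DMSO was −2.66, −3.92 and −3.10 in PTKO and −2.62, −2.83 and −2.27 in fl/fl. Summed proximal tubule markers were also lower in every PTKO AA 4wk library (2494 RPKM or less) than in any fl/fl one (3103 RPKM or more). The same held for the sums of the other Slc22 genes and of the ion gradient, apical exit and carnitine lists described below. Those of the transcription factors and of the aristolochic acid metabolism genes overlapped.

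**Figure D3:**
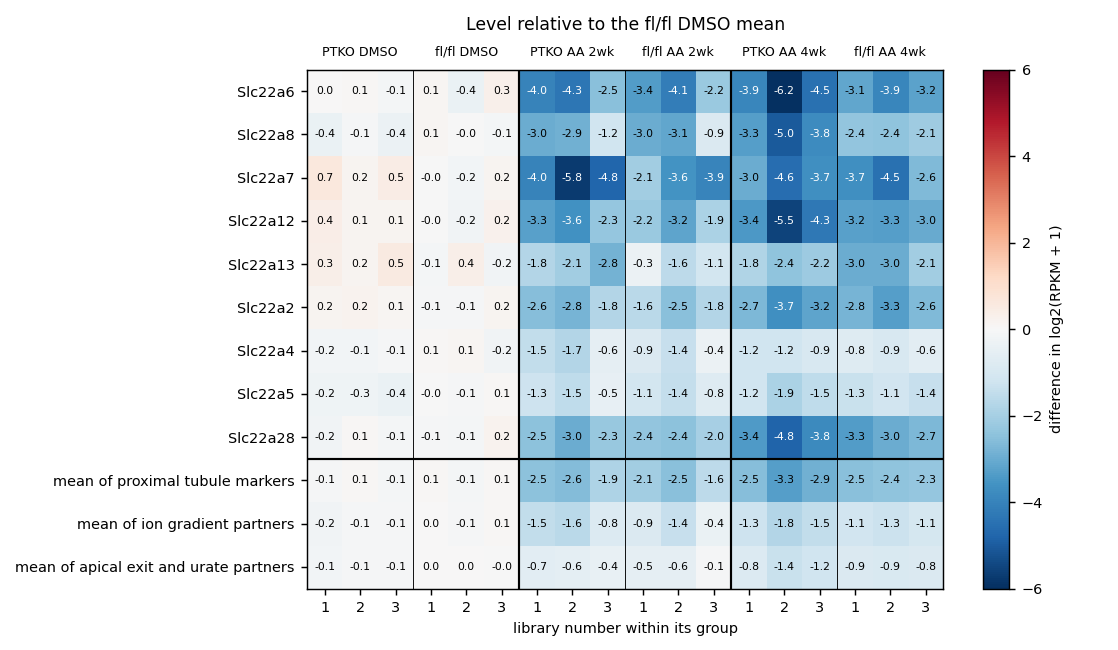
Difference in log2(RPKM + 1) from the fl/fl DMSO mean for each member (upper rows) and, below the line, the mean over proximal tubule markers, ion gradient partners and apical exit partners, in each of the 18 libraries (columns, numbered within their group). Red is higher and blue lower. The third AA 2wk library of each genotype is paler for most members, but not for Slc22a7 or Slc22a13, nor for Slc22a2 in fl/fl. The second PTKO AA 4wk library is darkest for most.

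Going from the end of the course to the end of remodeling, no member was called higher. In PTKO, Slc22a28 was the only member called (log2 −1.44 ± 0.29, AA 4wk over AA 2wk, adjusted p = 0.021), where 1.56% of all genes were called lower and 2.6% higher. That call was lost without the third PTKO AA 2wk library (−1.28, adjusted p = 0.065), and without the second (−1.04, adjusted p = 0.0964) or the third (−1.53, adjusted p = 0.0598) PTKO AA 4wk library. It was also lost in a fit of those 2 groups alone (adjusted p = 0.182). With the third AA 2wk library of each genotype left out it was −1.28 (adjusted p = 0.0365). Slc22a12 and Slc22a8 had values of −1.36 ± 0.44 (adjusted p = 0.0818) and −1.68 ± 0.56 (adjusted p = 0.0864), and Slc22a7 had 1.08 ± 0.55 (adjusted p = 0.218). Without the second PTKO AA 4wk library the values were −0.80 for Slc22a12 and −1.19 for Slc22a8. Calls were gained for Slc22a12 without the first PTKO AA 4wk library (−1.85, adjusted p = 0.0331) and for Slc22a8 without the third fl/fl AA 2wk library (−1.68, adjusted p = 0.0247). In fl/fl 0 of 9 members were called, against 0.125% of all genes called either way, and 3 of 9 had an unadjusted p under 0.05, as did 1672 of the 13624 genes. The lowest adjusted p was that of Slc22a13 (−1.67 ± 0.33, adjusted p = 0.0716), which was called without the second fl/fl AA 2wk library (−1.96, adjusted p = 0.0135) or the third PTKO AA 2wk library (−1.67, adjusted p = 0.0357), with all AA 4wk libraries below all AA 2wk libraries, as for Slc22a2 and Slc22a28. That pattern held for 10.4% of all genes in fl/fl, and in PTKO for 8.52% of all genes, among them Slc22a8 and Slc22a28.

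Between genotypes 0 of 9 members were called under DMSO, AA 2wk or AA 4wk, where 0.0367%, 0.00734% and 0.00734% of all genes were called either way. An unadjusted p under 0.05 was found for 0 members in DMSO cortex, for 2 after AA 2wk and for 4 after AA 4wk, against 673, 913 and 823 of all tested genes. The voom fit on recovered reads also called 0 members at each of these. In DMSO the effects of PTKO over fl/fl ran from −0.30 for Slc22a5 to 0.42 for Slc22a7, and Slc22a5 alone had every PTKO library below every fl/fl library, as 5.77% of all genes did. Without the third PTKO DMSO library they ran from −0.26 for Slc22a5 to 0.41 for Slc22a7. At AA 2wk Slc22a7 (−1.64 ± 0.55, adjusted p = 0.526) and Slc22a13 (−1.22 ± 0.33, adjusted p = 0.362) had every PTKO library below every fl/fl library, as 4.74% of all genes did, and their values were −2.05 and −0.97 without both libraries numbered 3.

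At AA 4wk, 3 of 9 members had every PTKO library below every fl/fl library, against 9.73% of all genes. These were Slc22a8 (−1.74 ± 0.56), Slc22a12 (−1.24 ± 0.44) and Slc22a28 (−1.01 ± 0.29), each with adjusted p = 0.812. Slc22a6 was at −1.44 ± 0.57 (adjusted p = 0.812), with 1 PTKO library just above the lowest fl/fl library. Slc22a4 and Slc22a5 were at −0.32 ± 0.26 and −0.26 ± 0.23, and Slc22a13 had the opposite sign (0.54 ± 0.33). Without both AA 2wk libraries numbered 3, Slc22a8 was called (unchanged at −1.74, adjusted p = 0.0298), the others were not, and 197 of all genes were called. Without the second PTKO AA 4wk library the values were −1.24 for Slc22a8, −0.78 for Slc22a6, −0.68 for Slc22a12 and −0.61 for Slc22a28, and none was called. The proximal tubule markers moved along, with a summed level of 2494, 1465 and 2202 RPKM in PTKO and 3103, 3194 and 3543 RPKM in fl/fl AA 4wk libraries, and their part in these differences was not tested.

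The interaction of genotype with the toxin was called for 0 of 9 members at AA 2wk and at AA 4wk, where 0.0147% and 0.00734% of all genes were called. The interaction at AA 2wk was −2.06 ± 0.77 for Slc22a7 (unadjusted p = 0.0178, adjusted p = 0.859) and −1.58 ± 0.47 for Slc22a13 (unadjusted p = 0.00449, adjusted p = 0.726), both from limma, and −2.47 and −1.32 without both AA 2wk libraries numbered 3. At AA 4wk the unadjusted p was under 0.05 for Slc22a12 (−1.48 ± 0.62) and Slc22a28 (−0.93 ± 0.41), each with adjusted p = 0.934. Without the second PTKO AA 4wk library these were −0.92 for Slc22a12 and −0.52 for Slc22a28. An unadjusted p under 0.05 was found for 730 of the 13624 genes at AA 2wk and 635 at AA 4wk. The voom fit also called 0 members for either interaction. The larger fold changes of PTKO given above for single members are thus not shown to differ from those of fl/fl.

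**Figure D4:**
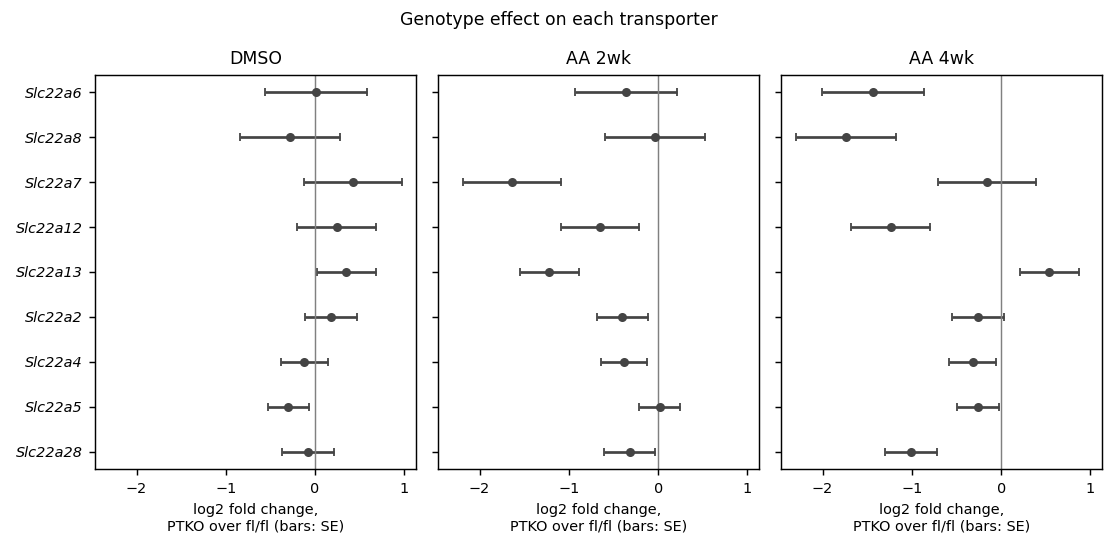
Log2 fold change of PTKO over fl/fl (x axis, bars are SE from the limma fit) for each member (y axis) in DMSO, AA 2wk and AA 4wk cortex. Points scatter around 0 in DMSO, Slc22a7 and Slc22a13 lie lowest at AA 2wk, and Slc22a8, Slc22a6, Slc22a12 and Slc22a28 lie lowest at AA 4wk, none of them past the threshold.

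The rest of the gene family was mixed. Of 16 other Slc22 genes 11 were tested, and 8 were called lower in PTKO and 7 in fl/fl at AA 2wk, then 7 in PTKO and 6 in fl/fl at AA 4wk, with 2 called higher each time. Among all genes 45.9% in PTKO and 50.4% in fl/fl were called higher at AA 2wk, and 55% and 51.9% at AA 4wk. Lower were 14.3% and 12.2%, then 17.3% and 14.3%. Slc22a22, which carries prostaglandins in mouse kidney, averaged 7.38 RPKM in PTKO AA 2wk cortex, against 79.9 RPKM in PTKO DMSO cortex (log2 −3.43, adjusted p = 2.79e-05), and 16.3 RPKM against 88.4 RPKM in fl/fl (−2.49, adjusted p = 0.000313). Slc22a15 rose at low level, to 1.78 RPKM in PTKO AA 4wk cortex against 0.359 RPKM in PTKO DMSO cortex (1.03, adjusted p = 1.81e-05), and to 1.55 RPKM against 0.326 RPKM in fl/fl (0.95, adjusted p = 4.97e-05).

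Organic anion uptake depends on a dicarboxylate gradient. Slc13a3, the sodium-dicarboxylate cotransporter that sustains it, fell in all 4 comparisons, with log2 changes of −2.25 in PTKO and −1.91 in fl/fl at AA 2wk and −3.12 in PTKO and −2.05 in fl/fl at AA 4wk (adjusted p of 0.00631 or less). Of the 6 ion gradient partners 3 were called lower at AA 2wk in each genotype, and 4 in PTKO and 3 in fl/fl at AA 4wk, with none higher. The others called lower at AA 2wk were Slc5a8 and Slc13a2, carriers of monocarboxylates and dicarboxylates.

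Carriers on the apical side moved in both directions. Of 10 apical exit and urate partners, 6 were called lower and 2 higher in PTKO and 5 lower and 3 higher in fl/fl at AA 2wk, and 6 lower and 2 higher in PTKO and 7 lower and 3 higher in fl/fl at AA 4wk. The higher calls stand against 45.9% of all genes in PTKO and 50.4% in fl/fl at AA 2wk, and 55% and 51.9% at AA 4wk. Abcc4 (MRP4), an efflux pump for organic anions, rose, with means of 29.2 RPKM in PTKO AA 2wk and 9.05 RPKM in PTKO DMSO cortex (log2 1.58, adjusted p = 3.54e-07), and 28.7 RPKM in fl/fl AA 2wk and 9.92 RPKM in fl/fl DMSO cortex (1.44, adjusted p = 7.42e-07). It was also called higher at AA 4wk (1.33 in PTKO and 1.19 in fl/fl). Slc17a3, a urate and anion exit carrier, had log2 changes of −2.49 in PTKO and −2.45 in fl/fl at AA 2wk, and Pdzk1, the scaffold that binds URAT1, of −1.22 in PTKO and −1.19 in fl/fl, all called lower. Abcc2 (MRP2) was called lower in PTKO (−0.57, adjusted p = 0.0423) and not in fl/fl (−0.47, adjusted p = 0.0809) at AA 2wk, a difference between genotypes for which no interaction on this list was called.

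Of 9 transcription factors of the proximal tubule, 7 were called lower in PTKO and 6 in fl/fl at AA 2wk and 6 in each genotype at AA 4wk, where 1 was called higher. Hnf4a, a regulator of proximal tubule genes, had log2 changes of −1.05 in PTKO and −1.13 in fl/fl at AA 2wk, both called lower. Klf15 itself fell with the toxin in PTKO (−0.76, adjusted p = 0.0193) and in fl/fl (−1.17, adjusted p = 0.00136) at AA 2wk, and at AA 4wk (−1.65 in PTKO and −1.95 in fl/fl). For aristolochic acid metabolism 4 of 6 genes were tested, and 2 were called lower and 1 higher in PTKO and 1 lower and 1 higher in fl/fl at AA 2wk, with 2 lower in each genotype and 2 higher in PTKO and 1 in fl/fl at AA 4wk. Nqo1, a reductase that activates the toxin's nitro group, was at −0.67 in PTKO (adjusted p = 0.0293) and −0.07 in fl/fl (adjusted p = 0.821) at AA 2wk, and fell in both genotypes at AA 4wk (−0.97 in PTKO and −0.86 in fl/fl). Its AA 2wk libraries ran from 22.1 to 30.5 RPKM in PTKO and from 29.2 to 79.8 RPKM in fl/fl. No interaction was called on this list, so a difference between genotypes is not shown. Of 7 tested carnitine synthesis and shuttle genes (9 listed), 4 were called lower in PTKO and 5 in fl/fl at each time and none higher.

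Markers of cell types moved with these results. Of the 15 proximal tubule markers 11 were called lower in each genotype at AA 2wk, and 15 in PTKO and 12 in fl/fl at AA 4wk. Leaving out both libraries numbered 3 gave 14 in each genotype at AA 2wk, and without the second PTKO AA 4wk library 14 in PTKO at AA 4wk. Their median log2 change was −1.53 in PTKO and −1.87 in fl/fl at AA 2wk and −2.06 in PTKO and −2.14 in fl/fl at AA 4wk, against the members' medians of −2.55, −2.25, −3.75 and −2.91. The 6 tubule injury markers were all called higher in each of the 4 comparisons, as were the 5 macrophage and 3 T cell markers. Called higher were 45.9% of all genes in PTKO and 50.4% in fl/fl at AA 2wk, and 55% in PTKO and 51.9% in fl/fl at AA 4wk. Summed macrophage markers ran from 580.0 to 1802 RPKM in PTKO and 246 to 1983 RPKM in fl/fl at AA 2wk and from 2251 to 3311 RPKM in PTKO and 1397 to 2178 RPKM in fl/fl at AA 4wk, against 48.5 to 79 RPKM in PTKO and 38.4 to 64.6 RPKM in fl/fl with DMSO. Summed T cell markers reached 42 RPKM in PTKO and 51.1 RPKM in fl/fl at AA 2wk and 53.8 RPKM in PTKO and 36.4 RPKM in fl/fl at AA 4wk, against at most 1.52 RPKM in PTKO and 1.53 RPKM in fl/fl with DMSO. In each genotype the third AA 2wk library had the lowest AA 2wk sum of both lists, with T cell markers at 6.46 RPKM in PTKO and 6 RPKM in fl/fl. No marker of any list was at 0 in a whole group. Their part in the members' changes was not tested.

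The remaining lists moved less. Of 4 fibroblast markers 0 were called in PTKO and 3 were called higher in fl/fl at AA 2wk, and 4 in each genotype at AA 4wk. Their summed level was 190.0, 94.6 and 16.6 RPKM in PTKO and 234, 143 and 70.4 RPKM in fl/fl AA 2wk libraries, lowest in the third of each. When these libraries were left out, 2 were called in PTKO and 4 in fl/fl at AA 2wk, and without the second PTKO AA 4wk library 2 were called in PTKO at AA 4wk, as without the third PTKO DMSO library. Among 5 thick ascending limb markers 1 was called higher in PTKO and 2 in fl/fl at AA 2wk, then 1 in PTKO and 3 in fl/fl at AA 4wk, with 1 lower throughout. For the distal convoluted tubule 1 of 4 was called lower each time and none higher. Of 5 podocyte markers 5 were called higher in PTKO and 1 in fl/fl at AA 2wk, and 2 in each at AA 4wk. Their summed level was 159, 161 and 361 RPKM in PTKO and 139, 142 and 143 RPKM in fl/fl AA 2wk libraries, so the third PTKO library stood apart. With both libraries numbered 3 left out, 4 were called in PTKO and 2 in fl/fl. Among 5 principal cell, 5 intercalated cell and 5 endothelial markers, 1 to 3 were called higher and 0 to 2 lower in any comparison with DMSO. The 2 endothelial calls in PTKO at AA 2wk were lost without both libraries numbered 3 and also without the third PTKO DMSO library.

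The genes whose pattern over the 18 libraries was closest to each member were found by the root mean square difference (RMS, log2 units) of profiles centred on their means. For Slc22a6 they were Ces1f (0.36), Slc22a22 (0.37) and Apom (0.42), and the same 3 genes were closest to Slc22a12 (0.30, 0.32 and 0.32). Slc22a6 and Slc22a12 were also each other's closest member (0.36). Slc22a8 was closest to Miox (0.23), an inositol oxygenase of the proximal tubule, then G6pc (0.32) and Slc13a3 (0.34). Slc22a7 stood most apart, with Akr1c14 (0.47), Mep1b (0.55) and Acsm3 (0.63), and with no member nearer than 0.96.

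For Slc22a2 the closest genes were Acot12 (0.22), Ces2c (0.23) and Slc27a2 (0.24), a fatty acid transporter and acyl-CoA synthetase, and for Slc22a28 they were Hsd3b2 (0.21), Slc17a3 (0.28) and Ugt3a2 (0.30). Slc22a2 and Slc22a28 were each other's closest member (0.37). Slc22a13 was closest to Apoa4 (0.23), Mettl7a2 (0.26) and Napsa (0.28). Slc22a4, with Pdk2 (0.14), Gstt2 (0.16) and Pink1 (0.16), and Slc22a5, with Msra (0.14), Cda (0.14) and Rab11fip3 (0.15), were closest to each other among members (0.30). These likenesses describe 18 libraries that share the toxin effect and the libraries standing apart.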

How the data were processed

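The deposited values are RPKM per gene and library, per the file headers, made by the authors from total RNA libraries (PBS-perfused kidneys, RNAlater, RNeasy, TruSeq Stranded Total RNA, per the labels' protocols). The submitters' processing notes name bcl2fastq 2.19, kallisto and build mm10; how reads were assigned to genes is not given in the sources used here. Values were whole multiples of 1 read's worth in 17579 of 17579 genes above 0 in at least 6 libraries (tolerance 0.02 reads), which gave the depth.

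Genes at 1 RPKM or more in at least 3 of 18 libraries (13624) entered 1 limma fit with trend and robust moderation (R 4.3.3, statmod 1.5.0, limma 3.58.1) on log2(RPKM + 1) with 6 group means and 11 two-sided comparisons, adjusted by Benjamini-Hochberg over all tested genes at 0.05. The pseudocount of 1 understates the changes of low genes. A list is described by counts and medians. All 9 members, the 3 genes closest to each, and from each list up to 4 genes with the smallest adjusted p at AA 2wk in fl/fl, plus a few fixed partners, are named, apart from some that are not reported here. The members and lists were chosen with earlier results of these data known. Overlaps and shared 31-base runs were found in GENCODE M21, and upstream bases in RefSeq. The fit was also run on simulated data in which each gene had the same spread in every group. Replicate correlations of the real libraries ran lower at AA 2wk, a setting that run did not cover.

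Replicate numbers recur in every group, but deviations of same-numbered libraries correlated at −0.16 to 0.66 (median 0.1, 45 pairs), against −0.68 to 0.53 for differently numbered libraries (median −0.02, 90 pairs), so the numbers were not taken to pair samples. Alternatives were another pseudocount and filter, median-of-ratios scaling, quantile normalization, a replicate block, fits of the compared groups alone, leaving out each library or both AA 2wk libraries numbered 3, and, chosen after seeing the data, voom on the recovered reads and list counts without the libraries that stood apart.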

Additional observations from a re-analysis of the deposited data

How the results depend on the processing

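All 36 toxin effects of the members kept their direction in 26 alternative settings. Of 936 such values 931 stayed past the threshold, and the 5 that did not, each with 1 library left out, are given beside the genes. The median of all genes, shifted by 0.29 to 0.40 in these comparisons, went to between −0.01 and 0 under median-of-ratios scaling, where Slc22a6 at AA 4wk was −5.31 in PTKO and −3.84 in fl/fl. That scaling moved the share of calls that were higher to 49.5% in PTKO and 50.2% in fl/fl at AA 2wk and 49.3% in each at AA 4wk, against 76.3%, 80.5%, 76.1% and 78.4%, and quantile normalization moved it to 46.7%, 44.8%, 44.5% and 43.8%.

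The count of members called for AA 4wk over AA 2wk was 1 in fl/fl under quantile normalization (0 to 1 with 1 library left out), and in PTKO 4 with the replicate block (Slc22a28 and also Slc22a12, adjusted p = 0.0293, Slc22a2, 0.0379, and Slc22a8, 0.0455), 0 in a fit of those groups alone and 0 to 2 with 1 library left out. The numbers were not shown to pair the samples. For the genotype at AA 4wk it was 1 without both AA 2wk libraries numbered 3. This was Slc22a8, at −1.74 in both fits, with an SE of 0.56 in the main fit and 0.3 in the other. The libraries left out are not in that comparison and enter it through the spread shared by all groups.

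Small effects that missed the threshold changed sign. Under median-of-ratios scaling Slc22a8 was 0.04 for the genotype at AA 2wk and 0 for AA 4wk over AA 2wk in fl/fl, and Slc22a13 was −0.01 for AA 4wk over AA 2wk in PTKO. Under quantile normalization those for Slc22a8 at AA 2wk and Slc22a13 were 0.01 and −0.15, and the Slc22a5 interaction at AA 4wk was −0.03. Without both libraries numbered 3 the genotype effect at AA 2wk was −0.12 for Slc22a5 and 0.14 for Slc22a8, and AA 4wk over AA 2wk was 0.33 for Slc22a6 in fl/fl and −0.21 for Slc22a13 in PTKO. Leaving out 1 library at a time, the genotype effect ran from −0.21 to 0.16 for Slc22a6 and −0.15 to 0.02 for Slc22a28 in DMSO, from −0.29 to 0.24 for Slc22a5, −0.92 to 0.14 for Slc22a6 and −0.60 to 0.71 for Slc22a8 at AA 2wk, and from −0.60 to 0.31 for Slc22a7 at AA 4wk. AA 4wk over AA 2wk ran in fl/fl from −0.16 to 0.36 for Slc22a4, −0.61 to 0.33 for Slc22a6, −0.87 to 0.17 for Slc22a7 and −0.37 to 0.76 for Slc22a8, and in PTKO from −0.08 to 0.51 for Slc22a4 and −0.21 to 0.32 for Slc22a13. The interaction at AA 2wk ran from −0.61 to 0 for Slc22a4, −0.93 to 0.13 for Slc22a6 and −0.32 to 0.99 for Slc22a8, and at AA 4wk from −0.13 to 0.22 for Slc22a5.

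For AA 4wk over AA 2wk in PTKO 567 genes were called, against 292 with a pseudocount of 0.1, 293 with voom, 1082 under quantile normalization, 1570 with the replicate block and 0 in a fit of those groups alone, and 10 to 1599 with 1 library left out. In fl/fl 17 were called, against 10, 10, 37, 40 and 0 in that order, 43 without both AA 2wk libraries numbered 3, and 1 to 161 with 1 library left out. For the genotype in DMSO 5 were called, with 1 to 34 elsewhere, at AA 2wk 1, with up to 110 (without the second fl/fl AA 2wk library), and at AA 4wk 1, with up to 197. The planned quasi-likelihood count test was not run, since the deposited values are RPKM, and voom took its place. Depth limits Slc22a7 and Slc22a28, which fell to 18 and 22 reads in their lowest libraries.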
